A study of Homo sapiens with 4 samples.

Results

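Among the cytidines that the study listed in both of its groups, 415 had a mismatch difference at least 5 percentage points higher after TGF-β1 than in control, and these positions in 389 genes are described here. They are 20.9% of the 1985 positions listed in both groups, and the 2 tables together list 17862 different positions. The positions were chosen by the measured values themselves: the value of the TGF-β1 table minus that of the control table had to reach 5 points. Their levels and differences are therefore given as a description, with no test. The cells were LX-2, an established human hepatic stellate cell line labelled as wild type. The 2 TGF-β1 libraries came from cells given human recombinant TGF-β1 at 5 ng/ml for 24 h, and the 2 control libraries from untreated cells, each described as a biological replicate. Both groups share the cell line, the selection of polyadenylated RNA and the sodium borohydride chemistry, and no library is labelled as made without borohydride or without NAT10, so a mismatch difference is not shown here to be acetylation. Each deposited table holds 1 value per position for its whole group, so neither a spread between cultures nor a depth is known and no value has a replicate check.

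N4-acetylcytidine (ac4C) is a cytidine that carries an acetyl group. The acetyltransferase NAT10 places it on ribosomal RNA and, guided by its adaptor THUMPD1, on transfer RNA, and it has also been mapped in messenger RNA, where it has been linked to stability and translation. Sodium borohydride reduces the acetylated base to a form that reverse transcriptase can pair wrongly, so that a C is read as T in part of the reads. The mismatch difference is the authors' difference of mismatch fractions at a C, printed here in percent; what was subtracted from what is not stated. Hepatic stellate cells are the main source of matrix in liver fibrosis, and TGF-β1 is a strong inducer of their conversion to contractile myofibroblasts. Of 10 stellate and myofibroblast markers, 7 had a listed cytidine after TGF-β1 and 4 in control. They held 32 listed positions after TGF-β1 and 11 in control, so at most 11 could be shared. None was among the 415, which are 20.9% of all shared positions, and with so few positions this says little about the markers. None of 6 hepatocyte, 5 endothelial and 3 cholangiocyte markers had any listed cytidine, which says nothing of their transcript level. Of 5 macrophage markers CD68, also a general lysosomal membrane protein, was listed.

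The sequence around a position could be read for 9 of the 415, those that fall in a RefSeq window running from 250 bases before to 50 after a gene's start (assembly GRCh38.p14, the same build as the hg38 of the tables). At all 478 listed positions of either table that fall in such a window, the transcript strand has a C at the printed coordinate, so the coordinates count from 1. The 9 sequences show the local context in which values differed, read 5′ to 3′ on the transcript strand with the listed cytidine in capitals, and some are short because the window ends there.
RAB5B, 5'UTR, chr12:55974110-55974127, plus strand: ttggggccgaCgggggag
RFC2, 5'UTR, chr7:74254350-74254365, minus strand: tgtggtggcgCgggcg
ALDH1A3, 5'UTR, chr15:100879879-100879899, plus strand: cgcctcgggcCagggagcgcg
CCDC90B, coding, chr11:83285929-83285941, minus strand: tctcccaaggCag
CIAO2B, coding, chr16:66934227-66934247, minus strand: agcatcgacgCacgcgagatc
CDYL, coding, chr6:4892362-4892382, plus strand: tagctgttaaCgggaaaggtg
GOSR1, 5'UTR, chr17:30477447-30477457, plus strand: ccagcagttaC
BST2, coding, chr19:17405496-17405516, minus strand: taagcttctgCtggggatagg
SPA17, coding, chr11:124675325-124675345, plus strand: gaagggctgaCacgcgagatt

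Of these sequences RAB5B, a GTPase of early endosomes, carried the largest difference, with 28.9% after TGF-β1 and 7.46% in control. RFC2, a subunit of the clamp loader of DNA replication, had 20.1% after TGF-β1 and 4.55% in control, and ALDH1A3, an enzyme that makes retinoic acid, had 19.9% after TGF-β1 and 6.17% in control. The other 6 sequences lay at 9.05% to 17.4% after TGF-β1 and at 2.41% to 11.7% in control. Among the 8 with a readable next base, a G followed the cytidine in 3, against 23 of 42 other shared positions in such windows. The trinucleotide CCG with the listed cytidine in the middle, searched on the transcript strand, was present at 0 of the 8 and at 5 of the 42. Of every C in the same windows and strands 30.2% were followed by G and 9.57% were the middle of CCG, and 88.1% of all 35116 windows hold CCG on either strand. With 8 positions these shares are too coarse to set the groups apart.

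Across the 415 positions the median mismatch difference was 13.9% after TGF-β1 and 4.81% in control. The middle 50% of the positions ran from 10.7% to 19.8% after TGF-β1 and from 3.16% to 7.91% in control. The median difference was 7.77 points and the median log2 ratio of TGF-β1 to control was 1.43. Over all shared positions the corresponding values were 1.73 points and 0.58. Most differences were moderate: 277 positions lay between 5 and 10 points, 100 between 10 and 20, 17 between 20 and 30, and 21 at 30 or more. The share of shared positions at 10 points or more was 6.95%, and a fall of at least 5 points was present at 1.21%. Of the 415, 321 were at least 2-fold higher after TGF-β1, 91 at least 4-fold and 23 at least 8-fold. After TGF-β1 100 of them stood at 20% or more, against 9 in control, and 10 stood at 50% or more, against 0 in control.

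**Figure D1:**
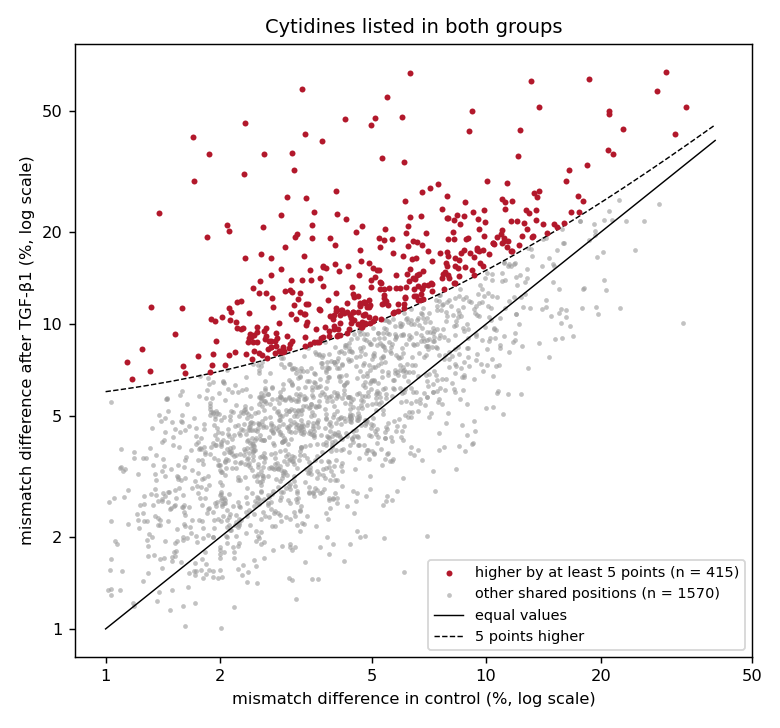
Mismatch difference of the 1985 shared cytidines after TGF-β1 (vertical, percent, log scale) and in control (horizontal, percent, log scale), 1 point per position, with no replicate values. The 415 positions higher by at least 5 points lie on or above the dashed line and reach 67.2% after TGF-β1, while most of the other 1570 lie closer to the solid line of equal values.

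The share of shared positions that met the rule was larger at higher control levels, although 218 of the 415 stood under 5% in control. The rule is set in points and uses the control value, and an equal ratio gives more points at a higher control level. This order is therefore partly built into the rule and was not tested. The rule took 21 of 278 shared positions with 1% to 2% in control (7.55%), 126 of 587 with 3% to 5% (21.5%) and 9 of 22 with 20% or more (40.9%). Just above it were FRMD6 with 5.05 points and CALU with 5.07. Just below it were SRC with 4.99 points, PSMA3 with 4.98 and TSPYL2 with 4.97. Most shared positions were higher after TGF-β1, so the number depends on how the tables are scaled: it fell to 268 when the median difference of 1.73 points was first subtracted from the TGF-β1 values, and to 121 when these were divided by 1.53, the ratio of the medians.

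Translation factors held the gene with most of these cytidines. EIF4G2 (ENSG00000110321), a relative of the scaffold EIF4G1 that recruits ribosomes without binding the cap factor EIF4E, had 5, all in coding sequence on the minus strand of chromosome 11. In transcript order, position 10804403 had 36.1% after TGF-β1 and 2.61% in control, and position 10803929 had 21.1% after TGF-β1 and 2.09% in control. The neighbouring cytidines at 10801082 and 10801081 had 47.6% and 47.0% after TGF-β1, against 5.11% and 4.25% in control. The fifth, at 10801061, had 30.9% after TGF-β1 and 2.31% in control. These were all of the shared cytidines of EIF4G2. Its 5 cytidines listed only after TGF-β1 lay between 4.32% and 13.0%, and the 1 listed only in control stood at 4.18%.

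In the list of translation initiation and elongation factors, 10 of 27 shared positions were among the 415 (37.0%), against 20.9% of all shared positions, and 5 of the 10 are those of EIF4G2. The median difference over the 27 was 1.81 points, against 1.73 over all. PABPC1, the cytoplasmic poly(A)-binding protein, had 20.8% after TGF-β1 and 2.60% in control. EIF4E, the cap-binding factor, had 16.5% after TGF-β1 and 2.72% in control. EIF4G1 had 29.4% after TGF-β1 and 16.2% in control. SERBP1, an mRNA- and ribosome-binding protein, had 22.7% after TGF-β1 and 2.89% in control. Cytosolic ribosomal protein genes had 2 of 28 shared positions among the 415 (7.14%), in RPL15 with 20.3% after TGF-β1 and 11.02% in control and in RPL13A with 9.62% after TGF-β1 and 3.57% in control. Aminoacyl-tRNA synthetases and their scaffolds had 0 of 9, with a median difference of 0.22 points.

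**Figure D2:**
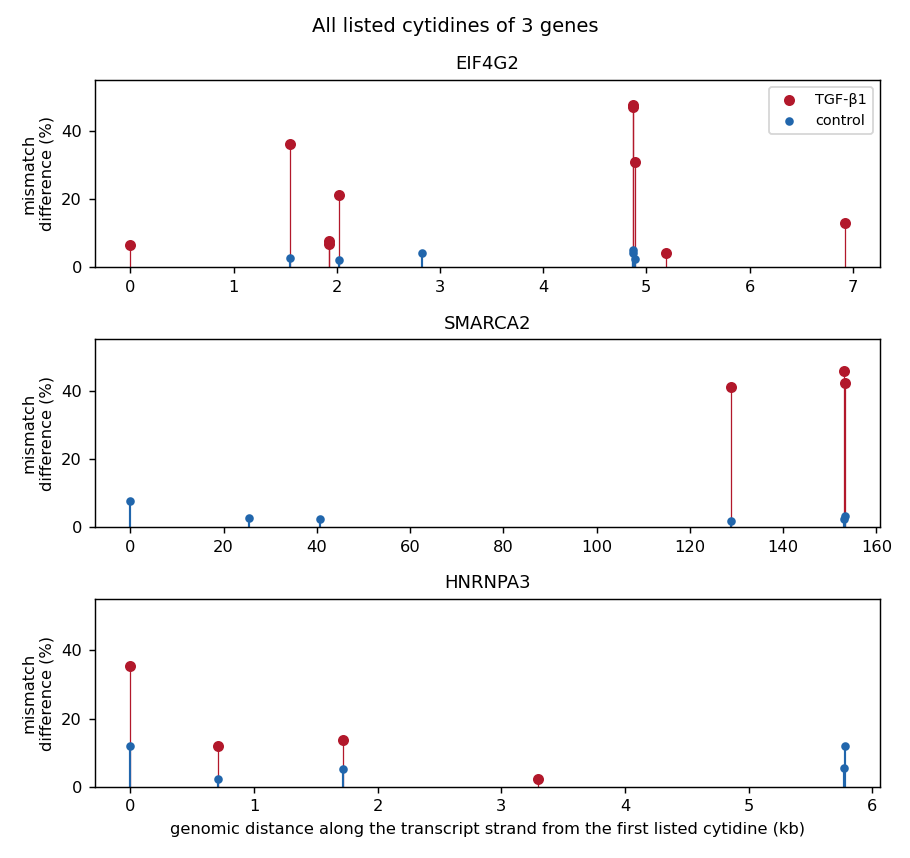
Mismatch difference (percent, vertical) of every listed cytidine of EIF4G2, SMARCA2 and HNRNPA3 after TGF-β1 (red) and in control (blue), by genomic distance in kb along the transcript strand from the first listed cytidine of the gene. A cytidine with 1 colour was listed in that group only; the 5 shared cytidines of EIF4G2 reach 21.1% to 47.6% after TGF-β1 and 2.09% to 5.11% in control.

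Splicing factors had 13 of 49 shared positions among the 415 (26.5%), in 9 genes, against 20.9% of all shared positions. The median difference over the 49 was 2.76 points, against 1.73 over all. HNRNPA3, an hnRNP of the A/B family, had 3. Its position 177216002 on chromosome 2 had 35.6% after TGF-β1 and 12.1% in control, and the others had 11.9% and 13.6% after TGF-β1 against 2.26% and 5.28% in control. PRPF4B, a kinase that acts on the spliceosome, had 27.9% after TGF-β1 and 7.13% in control. EFTUD2, a GTPase of the U5 particle, had 18.2% after TGF-β1 and 6.76% in control. PRPF19, a ubiquitin ligase of the spliceosome, had 16.7% after TGF-β1 and 7.94% in control, in its 5'UTR. YBX1, an mRNA-binding protein that reads methylated cytidine, had 2 positions 30 bases apart with 11.6% and 6.96% after TGF-β1, against 3.12% and 1.88% in control. UPF1, the helicase of nonsense-mediated decay, held a position with 14.5% after TGF-β1 and 5.79% in control and a second shared position that went the other way, with 13.0% after TGF-β1 and 18.0% in control.

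Chromatin and cohesin genes held several of the largest differences. SMARCA2 (ENSG00000080503), an ATPase of the SWI/SNF remodeller, had 3 positions on the plus strand of chromosome 9. Position 2161774 had 40.9% after TGF-β1 and 1.70% in control, the largest log2 ratio of the 415 at 4.59. Positions 2186113 and 2186140, 27 bases apart, had 45.7% and 42.1% after TGF-β1, against 2.33% and 3.35% in control. Its 3 other cytidines were listed in control only, at 2.25% to 7.68%. BCL7A, another SWI/SNF subunit that the list did not hold, had 67.2% after TGF-β1 and 29.7% in control, the highest TGF-β1 level of the 415. ACTL6A, an actin-related subunit, had 13.98% after TGF-β1 and 3.46% in control, in its 5'UTR. Of the 17 shared positions in the list of remodellers 5 were among the 415 (29.4%), against 20.9% of all shared positions. The median difference over the 17 was 2.21 points, against 1.73 over all.

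In the list of cohesin and condensin genes 4 of 8 shared positions were among the 415 (50%), all in cohesin subunits or regulators. NIPBL, which loads cohesin on DNA, had 59.1% after TGF-β1 and 3.28% in control. STAG2, a core cohesin subunit, had 35.1% after TGF-β1 and 5.34% in control. SMC3, an ATPase of the ring, had 17.9% after TGF-β1 and 2.97% in control, and WAPL, which releases cohesin, had 9.02% after TGF-β1 and 2.39% in control. JMJD1C, a member of the JmjC histone demethylase family, had 32.0% after TGF-β1 and 3.13% in control. SUPT6H, a histone chaperone of transcription elongation, had 11.3% after TGF-β1 and 1.31% in control. Among histone modifiers and readers 2 of 15 shared positions met the rule (13.3%), in the acetyltransferase gene KAT6A and the methyltransferase gene SETD1A.

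SLMAP (ENSG00000163681), a tail-anchored protein of the STRIPAK phosphatase complex, had the largest difference, with 66.7% after TGF-β1 and 6.30% in control at position 57862035 of chromosome 3. DAB2, a clathrin adaptor that also binds TGF-β receptors, had 55.7% after TGF-β1 and 5.498% in control. OSBPL9 and OSBP, lipid transfer proteins of 1 family, had 63.7% and 36.3% after TGF-β1, against 18.7% and 3.10% in control. GOLGA4, a golgin of the trans-Golgi, had 47.8% after TGF-β1 and 5.995% in control. PICALM, a clathrin assembly protein, had 26.1% after TGF-β1 and 3.003% in control. CD2AP, an adaptor between membrane proteins and actin, had 43.1% after TGF-β1 and 9.02% in control. Golgi and coat genes had 4 of 13 shared positions among the 415 (30.8%), and endocytosis genes 5 of 24 (20.8%). Lipid transfer and sterol genes had 3 of 11 (27.3%), and all shared positions together 20.9%. MFN1, a GTPase that fuses mitochondrial outer membranes, had 62.5% after TGF-β1 and 13.2% in control, and TIMM17B, of the inner membrane import channel, had 18.3% after TGF-β1 and 10.5% in control.

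Ubiquitin ligases and proteases had 7 of 15 shared positions among the 415 (46.7%), with a median difference over the 15 of 3.83 points. CUL3, a scaffold of cullin-RING ligases, had 2 positions with 29.5% and 23.3% after TGF-β1, against 1.71% and 3.52% in control. CUL1, the scaffold of SCF ligases, had 23.0% after TGF-β1 and 1.38% in control. USP47, a deubiquitinase, had 43.2% after TGF-β1 and 12.3% in control. UBA1, the main ubiquitin-activating enzyme, had 11.8% after TGF-β1 and 2.22% in control. UBE2D3, a ubiquitin-conjugating enzyme that the list did not hold, had 51.5% after TGF-β1 and 13.8% in control. UBXN4, an endoplasmic reticulum protein of protein degradation, had 20.2% after TGF-β1 and 2.12% in control. PPP1R12A, which targets the phosphatase of myosin light chain, had 39.7% after TGF-β1 and 3.71% in control, and PPP3CB, a catalytic subunit of calcineurin, had 19.3% after TGF-β1 and 1.85% in control. ANKHD1, an ankyrin-repeat protein whose position is also annotated to its readthrough transcript with EIF4EBP3, had 50% after TGF-β1 and 9.19% in control.

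Some genes with 2 of the positions were in no list, and the following 4 were chosen after their values were seen. RAB1A, a GTPase of transport between endoplasmic reticulum and Golgi, had 22.6% and 12.6% after TGF-β1, against 8.75% and 4.46% in control. MBD3, a subunit of the NuRD repressor complex, had 22.3% in its 3'UTR and 14.4% in coding sequence after TGF-β1, against 7.93% and 8.50% in control. HSPA4, an HSP110-type chaperone, had 7.48% and 8.03% after TGF-β1, against 1.13% and 2.53% in control. MYO1C, an unconventional myosin, had 10.96% and 8.98% after TGF-β1, against 4.31% and 3.68% in control. In each of these genes both positions were higher by more than 5 points, as the rule requires, and the levels differed between positions of 1 gene.

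**Figure D3:**
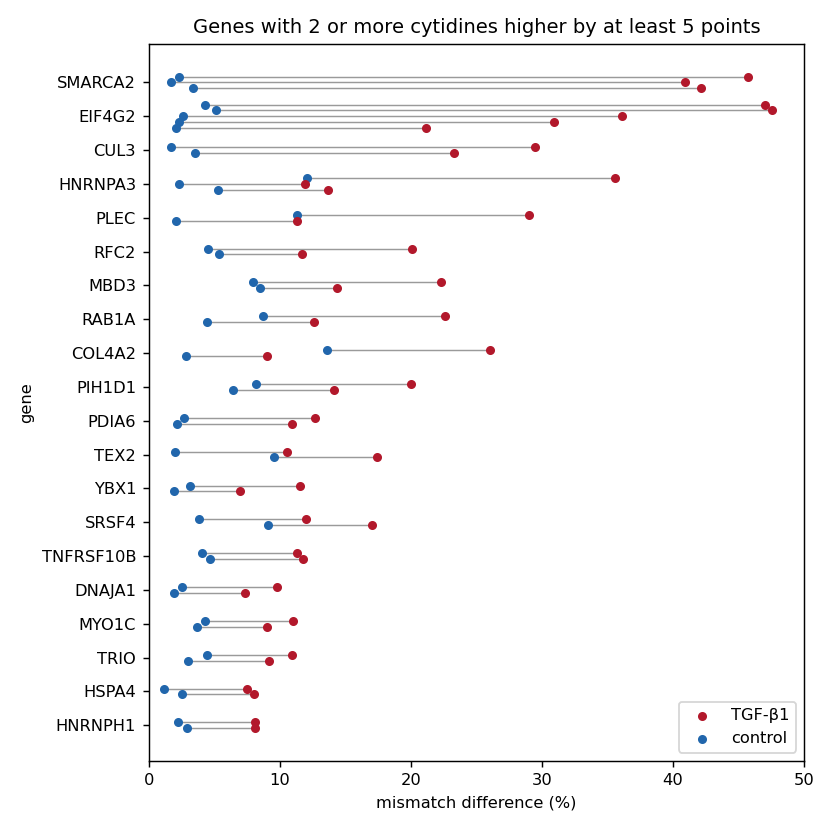
Mismatch difference (percent, horizontal) after TGF-β1 (red) and in control (blue) of each cytidine in 20 of the 21 genes with 2 or more of the 415 positions, joined by a line per position, genes ordered by their largest difference. SMARCA2 and EIF4G2 stand at the top with up to 45.7% and 47.6% after TGF-β1, and the 2 positions of HNRNPH1 at the bottom with 8.07% and 8.08%.

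The list of stellate cell activation and contraction had shared cytidines in 25 genes. Of its 55 shared positions 1 was among the 415 (1.82%), against 20.9% of all shared positions, and 36 were higher after TGF-β1 by any amount. It lay in the 3'UTR of ITGA5, the fibronectin receptor subunit, with 14.9% after TGF-β1 and 6.82% in control. The median difference over the 55 was 0.68 points, against 1.73 over all. Collagens and other matrix proteins had 9 of 50 (18%), with a median difference of 1.02 points over the 50. COL18A1, whose C-terminal fragment is endostatin, had 58.0% after TGF-β1 and 28.2% in control, while another shared position in its 3'UTR had 17.3% after TGF-β1 and 20.3% in control. COL4A2, a basement membrane collagen, had 26.1% and 9.03% after TGF-β1 at 2 positions, against 13.6% and 2.82% in control. AGRN, the heparan sulphate proteoglycan agrin, had 19.2% after TGF-β1 and 8.96% in control. COL4A1 had 14.1% after TGF-β1 and 6.49% in control, while another of its shared positions had 2.23% after TGF-β1 and 3.28% in control.

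Genes that process matrix had 8 of 27 shared positions among the 415 (29.6%), against 20.9% of all shared positions. The median difference over the 27 was 2.04 points, against 1.73 over all. CTSL, a lysosomal cysteine protease, had 27.0% after TGF-β1 and 6.78% in control in its 5'UTR. ADAMTS1, a secreted metalloprotease, had 22.3% after TGF-β1 and 7.91% in control. TIMP2, a metalloprotease inhibitor, had 14.96% after TGF-β1 and 4.11% in control. Of TGF-β and SMAD signalling genes 3 of 8 shared positions met the rule: that of DAB2, that of the co-receptor ENG with 15.3% after TGF-β1 and 8.46% in control, and that of the induced matrix protein TGFBI with 8.71% after TGF-β1 and 2.36% in control. In this list 4 of the 8 were higher after TGF-β1 by any amount.

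Of the 20 shared positions in kinesin, dynein and microtubule protein genes 9 were among the 415 (45%), each in a different gene. Of all shared positions 20.9% were among the 415. The median difference over the 20 was 2.94 points, against 1.73 over all. Their median log2 ratio of TGF-β1 to control was 0.51, against 0.58 over all. By median ratio the list was therefore not above the shared positions in general. KIF5B, the conventional kinesin heavy chain, had 17.03% after TGF-β1 and 2.56% in control. KIF20A and KIF23, kinesins of cytokinesis, had 17.4% and 17.1% after TGF-β1, against 4.66% and 7.58% in control. MAP7D1, a microtubule-binding protein of the MAP7 family, had 17.3% after TGF-β1 and 7.02% in control. Cytolinkers and giant scaffolds had 9 of 30 (30%). PLEC, plectin, had 29.0% and 11.3% after TGF-β1 at 2 of its 16 shared positions, against 11.3% and 2.11% in control. TLN2, a talin, had 15.3% after TGF-β1 and 3.72% in control, and SPTAN1, the spectrin alpha chain of nonerythroid cells, had 13.1% after TGF-β1 and 2.45% in control.

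**Figure D4:**
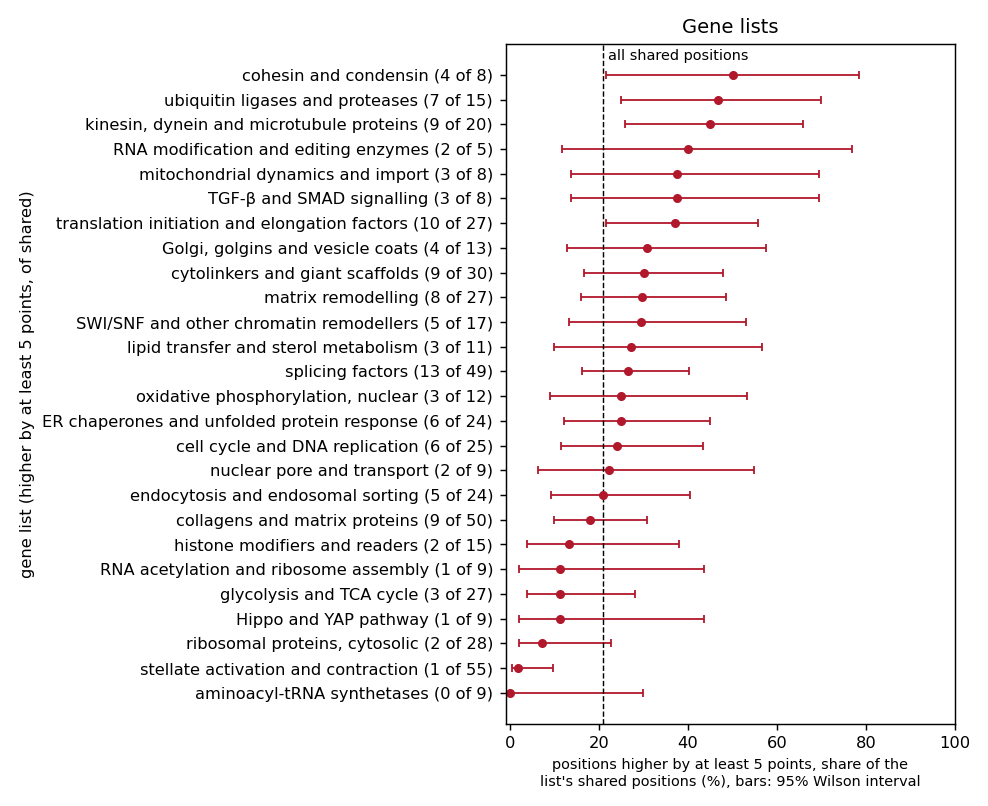
Share of the shared positions of each gene list that were higher after TGF-β1 by at least 5 points (percent, points) with its 95% Wilson interval (bars, counting error only), for lists with 5 or more shared positions. The dashed line marks the 20.9% of all shared positions; cohesin and condensin genes stand at 50% and stellate activation and contraction genes at 1.82%.

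The shares of the next lists stand beside the 20.9% of all shared positions. Endoplasmic reticulum chaperones had 6 of 24 (25%), led by PDIA6, a disulphide isomerase, and HSPA5, the chaperone BiP. PDIA6 had 12.7% and 10.9% after TGF-β1, against 2.65% and 2.14% in control. HSPA5 had 15.04% after TGF-β1 and 5.18% in control. Nuclear genes of oxidative phosphorylation had 3 of 12 (25%), among them those in the ATP synthase gene ATP5F1B with 27.0% after TGF-β1 and 13.3% in control and in the complex I gene NDUFV2 with 16.7% after TGF-β1 and 3.33% in control. Glycolysis and TCA cycle genes had 3 of 27 (11.1%), in IDH3G, ENO1 and MDH2, with differences of 5.72 to 7.79 points. Cell cycle and replication genes had 6 of 25 (24%), among them CENPB, a centromere protein, with 19.0% after TGF-β1 and 7.92% in control. Nuclear pore and transport genes had 2 of 9 (22.2%), with NUP210 at 20.996% after TGF-β1 and 6.24% in control. RNA modification and editing enzymes had 2 of 5, both in YBX1, genes of RNA acetylation and ribosome assembly 1 of 9, in POLR1A, the largest subunit of RNA polymerase I, and Hippo and YAP genes 1 of 9, that of SLMAP. Neither NAT10 nor THUMPD1 held any of the 415. The CD68 position, in its 3'UTR, had 32.0% after TGF-β1 and 16.5% in control. The lists together held 120 of the 415 and 295 were in no list.

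The annotation of the 415 was near that of the other 1570 shared positions, with wider gaps in the untranslated regions that overlapping intervals do not set apart. Coding sequence held 332 of them, 80% (95% Wilson interval 75.9 to 83.6), against 79.3% (77.2 to 81.2) of the others. 3'UTRs held 48, or 11.6% (8.84 to 15.002), against 8.03% (6.78 to 9.47), and 5'UTRs held 31, or 7.47% (5.31 to 10.4), against 11.1% (9.62 to 12.7). Both pairs of intervals overlap, and they cover counting error only, with positions of 1 gene counted as independent. Seen from each segment, 27.6% of shared 3'UTR positions, 21.1% of coding positions and 15.1% of 5'UTR positions were among the 415. At differences of 20 points or more 34 of 38 positions were coding. The plus strand held 52.0%, against 51.1% of the others.

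In 3'UTRs the largest difference was in C6orf89, with 34.1% after TGF-β1 and 6.09% in control, a gene chosen after its value was seen, as were the next examples. SHCBP1, a protein that binds the adaptor SHC, had 29.5% after TGF-β1 and 10.05% in control, and ETV5, an ETS transcription factor, had 26.3% after TGF-β1 and 7.88% in control. Noncoding exons held 3 of the 415, out of 27 shared positions there (11.1%, interval 3.85 to 28.1), against 20.9% of all shared positions. The median difference over the 27 was 0.50 points. MALAT1 (ENSG00000251562), a long noncoding RNA of nuclear speckles, had 36.2% after TGF-β1 and 1.87% in control at position 65501540 of chromosome 11. The pseudogenes HLA-H, with 23.9% after TGF-β1 and 11.2% in control, and CALM2P2, with 13.0% after TGF-β1 and 6.48% in control, resemble expressed parent genes, so their reads may be shared with these. A single position was intronic, in RSKR, with 10.4% after TGF-β1 and 5.29% in control. The highest control levels among the 415 were 33.4% in MATR3, a nuclear matrix protein, which had 51.4% after TGF-β1, and 31.4% in PODXL, a sialomucin, which had 42.1% after TGF-β1. BCL7A, COL18A1 and PRR12 followed, the last with 43.5% after TGF-β1 and 22.9% in control.

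**Figure D5:**
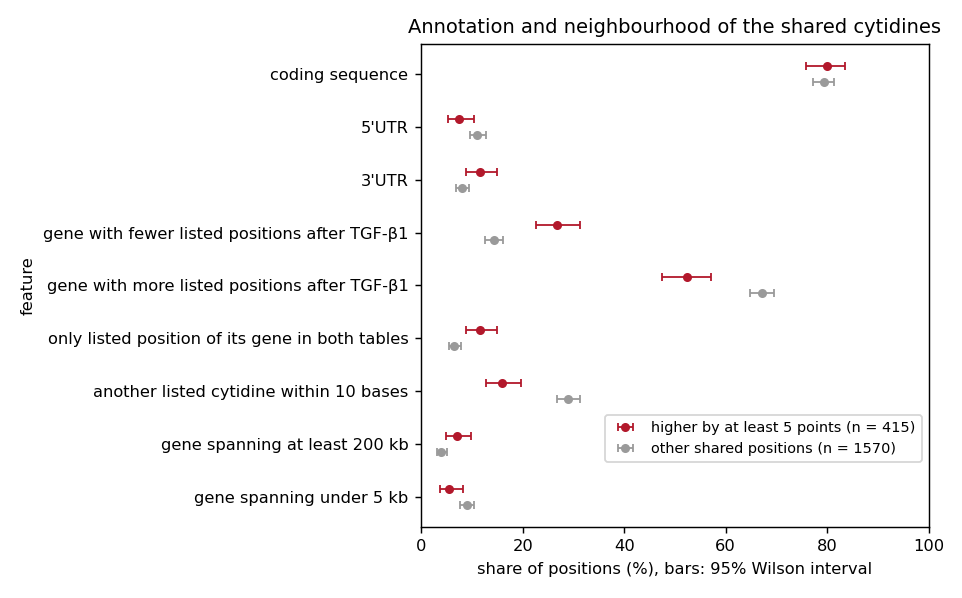
Share (percent) of the 415 positions higher by at least 5 points (red) and of the other 1570 shared positions (grey) that have each feature, with 95% Wilson intervals (bars, counting error only). The sets lie together for coding sequence (80% and 79.3%) and apart for genes whose number of listed positions was lower after TGF-β1 (26.7% and 14.3%) and for another listed cytidine within 10 bases (15.9% and 28.9%).

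Another listed cytidine of the same strand lay within 10 bases of 66 of them, or 15.9% (12.7 to 19.7), against 28.9% (26.7 to 31.2) of the others, and the median distance to the nearest one was 748 bases, against 144. These intervals do not overlap. The gene's number of listed positions was lower after TGF-β1 than in control for 111, or 26.7% (22.7 to 31.2), against 14.3% (12.6 to 16.1), and more for 52.3%, against 67.1%. At differences of 20 points or more, 20 of 38 positions lay in genes with fewer. For 48 positions (11.6%) it was the only listed cytidine of its gene in both tables, against 6.56% of the others. Genes spanning 200 kb or more held 6.99%, against 4.01%, and those under 5 kb held 5.54%, against 8.98%. The numbers of listed positions come from the same tables and the authors' threshold as the levels, and depth and transcript level are not given, so their part in these shares was not tested. A deposited p-value of 0 was present in the TGF-β1 table at 23 of the 415, or 5.54% (3.72 to 8.18). It was present there at 33 of the others, or 2.10%, with an interval that ends at 2.94. This p-value is given for the same TGF-β1 value that the rule asks to be high. The gap is therefore not independent of the rule and was not tested. In the control table a p-value of 0 was present at 9 of the 415 (2.17%) and at 27 of the others (1.72%). Among the 23 with such a value in the TGF-β1 table are the positions in MFN1, ANKHD1 and MATR3.

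Most of the 389 genes, 368, held 1 of the 415, 18 held 2, SMARCA2 and HNRNPA3 held 3 and EIF4G2 held 5. In 125 of the genes another shared position did not meet the rule, and these 222 positions had a median difference of 1.15 points, against 1.11 in genes with none of the 415. They were higher after TGF-β1 in 76.1%, against 72.1%. In 26 genes such a position was lower by at least 1 point. POLR2A, the largest subunit of RNA polymerase II, held one of the 415 with 16.4% after TGF-β1 and 8.26% in control, and another with 11.1% after TGF-β1 and 16.2% in control. DNAJA1, a cochaperone of HSP70, had 2 coding positions higher by 5.45 and 7.26 points and a 5'UTR position with 6.76% after TGF-β1 and 10.4% in control. The next shares cover genes with 2 or more positions in the table concerned. A member of the 415 was the highest listed cytidine of its gene in 70.3% of 306 cases after TGF-β1 and in 43.1% of 306 cases in control. For the other shared positions this held in 22.8% of 1387 cases after TGF-β1 and in 30.5% of 1228 cases in control. The rule itself raises the share after TGF-β1, and it took larger shares at higher control levels.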

How the data were processed

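Per the labels' protocols, total RNA of LX-2 cells was selected for polyadenylated RNA and made into messenger RNA libraries. The build hg38 and the tools fastp (version 0.23.1), STAR (version 2.7.6a) and featureCounts are named per the submitters' processing notes. For the caller of positions, and for how replicates were merged, nothing was given in the sources used here. The deposited tables, 1 per group, give each position's mismatch difference as a fraction of at least 0.01, and the deposited p-value is below 0.05 for every position; whether it was adjusted is not stated.

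Lines of the same position were merged (Python 3.11.15, pandas 2.3.3), leaving 11735 TGF-β1 and 8112 control positions, and values were multiplied to percent. Depth is unknown, and with 1 value per group no test between groups was made. Shares have 95% Wilson intervals (scipy 1.17.1). The code that applies the threshold was checked on simulated tables, which is no statistical test of the positions. The positions and the 27 gene lists (1194 entries) were chosen with earlier results of these data known. Named genes were the 15 largest differences and 10 further log2 ratios (1 per gene), genes with 3 or more positions, up to 4 genes per list, the positions nearest the threshold, the 5 highest control levels, positions within 30 bases of each other, genes with opposite changes and noncoding exons; some of them are not reported here, genes outside the rule are said to be chosen after their values were seen, and those with a printed sequence are all that fell in a sequence window. Of the 396 gene names 391 matched RefSeq (GRCh38.p14), 387 as protein coding.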

Additional observations from a re-analysis of the deposited data

How the results depend on the processing

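No paired analysis was possible because each group has 1 deposited value per position and none per library, and for the same reason no replicate could be left out. With a threshold of 3 points there were 677 positions (34.1% of shared) in 603 genes with a median of 4.58% in control, and with 10 points 138 (6.95%) in 131 genes with 5.84%, of which 32.6% lay in genes whose number of listed positions was lower after TGF-β1. A 2-fold rule took 549 (27.7%) with 2.92% in control, including 321 of the 415. After subtraction of the median difference there were 268 (13.5%) in 251 genes with 5.28%, and after division by the ratio of medians 121 (6.10%) in 111 genes with 4.25% and 35.5% in such genes. With the authors' p-value below 0.001 in both tables there were 237 in 227 genes with 5.66%. The share in coding sequence kept within its interval in all 8 alternatives, at 80.2% to 82.6%. Leaving out p-values of exactly 0 left 386 positions, and positions of 1 gene only 407. The missing depth limits every level.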

Other observations

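Close neighbours of these cytidines did not always move with them. Shared cytidines lay within 10 bases of 13 of the 415. Of these 13 neighbours 2 were among the 415, the adjacent EIF4G2 pair, 8 were higher by less than 5 points and 3 were lower. Of all 1985 shared positions 20.9% met the rule and 429 were lower after TGF-β1. With 13 neighbours these counts do not set close neighbours apart from shared positions in general. In ARHGEF1, an exchange factor of RHOA, the 5'UTR position 41888075 on chromosome 19 had 15.9% after TGF-β1 and 4.93% in control, while the next base had 6.69% after TGF-β1 and 8.65% in control. In BAP1, a deubiquitinase of histone H2A, position 52402114 on chromosome 3 had 21.4% after TGF-β1 and 16.04% in control, and the cytidine 2 bases away had 4.45% after TGF-β1 and 9.35% in control. These pairs were chosen after their values were seen and have no replicate values.

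The share of shared positions that met the rule, 20.9% over all chromosomes, is given for 4 chromosomes chosen after their values were seen, from the high and low parts of the range and with no test of a difference. It was 40.7% of 27 on chromosome 13 (95% Wilson interval 24.5 to 59.3) and 33.0% of 94 on chromosome 5 (24.3 to 43.0), against 16.04% of 212 on chromosome 19 (11.7 to 21.6) and 10.5% of 86 on chromosome 20 (5.604 to 18.7). Positions listed only after TGF-β1 in the 389 genes numbered 1021, with a median of 4.08%, against 3.81% in other genes with a shared position. Those listed only in control numbered 532 in the 389 genes, with a median of 3.74%, against 3.51% in the other genes, so the offset was present in both tables.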
